A study of Mus musculus with 14 samples.

Results

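Genes of cholesterol synthesis and sterol regulation were followed in sorted mouse mammary cells through 28 genes. They were chosen by name, as every probe whose gene name on the array was one of the 28 or an older synonym of it, such as Sc4mol for Msmo1. The 28 genes had 59 probes, of which 56 were bright enough to be tested, so all 28 were among the 23642 genes tested. Of them, 19 encode enzymes of the synthetic route, 4 encode proteins that sense sterols, 3 serve sterol transport and storage, and 2 encode receptors for oxidised sterols.

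The study sorted cells of the mammary gland and asked how populations enriched for mammary stem cells (MaSC in the labels) differ from depleted ones, in pregnant and in virgin mice. P4, P5 and P6 came from pregnant and from virgin wild-type FVB/N-J mice, with 2 arrays for each population and condition. P4 was labelled as MaSC enriched, P5 as enriched for luminal progenitors, and P6 as differentiated mammary epithelial cells with no enrichment. The labels give the gate CD24+CD29hi for both P4 and P5 and CD24lo for P6, so the gate in the labels does not tell P4 and P5 apart. The Lin-/GFPhi population (MaSC enriched) and the Lin-/GFPlo population (depleted) came from virgin L2G85 mice, an FVB/N-Luciferase transgenic line, with 1 array each. The promoter of that transgene, the ages of the mice, the stage of pregnancy and the number of mice per array are not given in the labels. Nor do they say whether replicates came from separate mice, so p-values rest on a spread between samples that may be technical.

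Cells make cholesterol from acetyl-CoA through mevalonate and farnesyl diphosphate to squalene, which is closed to lanosterol and then trimmed to cholesterol. The transcription factor SREBP2, the product of Srebf2, drives the genes of this route and is carried by SCAP from the endoplasmic reticulum to the Golgi when sterols are scarce, whereas INSIG1 and INSIG2 hold the SCAP complex back when sterols are plentiful. The receptors LXR alpha (Nr1h3) and LXR beta (Nr1h2) are switched on by oxidised sterols and drive genes of cholesterol export. The mammary gland makes cholesterol of its own for the membranes of growing epithelium and for milk fat globules.

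Each array set Cy5-labelled RNA of sorted cells against the same Cy3-labelled mix of RNA from 11 mouse cell lines, so each value below is a log2 ratio over that mix and values are compared between groups for a gene, not between genes. Arrays had median Cy5 intensities of 70.9 to 196 over local backgrounds of 32 to 34.5, and every member probe that was used was well above background and unsaturated on all 14 arrays. Scan 1 held replicate 1 of the virgin populations and both GFP arrays, scan 2 held replicate 2 of both conditions, and scan 3 held replicate 1 of the pregnant populations. The labels were checked against marker genes. Basal markers averaged log2 ratios of 3.23 to 5.30 on pregnant P4 arrays and 4.72 to 4.73 on virgin P4 arrays, above the 1.78 to 2.06 of pregnant P5 and the 0.73 to 1.05 of virgin P5. Fibroblast markers were high in P6, at 4.10 to 5.98 on pregnant and 5.55 to 5.70 on virgin arrays. Luminal markers averaged -1.63 to -1.14 and 0.07 to 0.56 there. Among them Krt8 lay between -3.77 and -1.01, Elf5 between 2.06 and 3.93 and Kit between 0.02 and 1.49. Of the 3 populations, P6 had the lowest mean of each of the 8 luminal markers in both conditions. It also had the highest mean of each of the 7 fibroblast markers. Secretory markers averaged 4.79 to 6.22 on pregnant and 2.54 to 3.24 on virgin P6 arrays. In pregnancy these overlapped with the 4.66 to 7.59 of P4. The fibroblast and luminal markers of P6 so go against its label of differentiated epithelium. The population is called P6 throughout.

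The 19 enzymes of the route were on average highest in pregnant P5. The mean log2 ratio of these enzymes was -0.07 and 0.14 on the pregnant P4 arrays and 0.91 and 1.02 on the pregnant P5 arrays, and it lay between -0.95 and -0.27 on the other 10 arrays. Over the 8 groups, pregnant P5 had the highest mean of 17 of the 28 genes, and the share over all genes was not counted. The means of the 6 replicated groups and the GFP arrays spanned 4.96 for Insig1, 4.21 for Tm7sf2, 3.83 for Fdps and 3.77 for Sqle, against 0.50 for Ggps1, the smallest span of the 28.

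**Figure D1:**
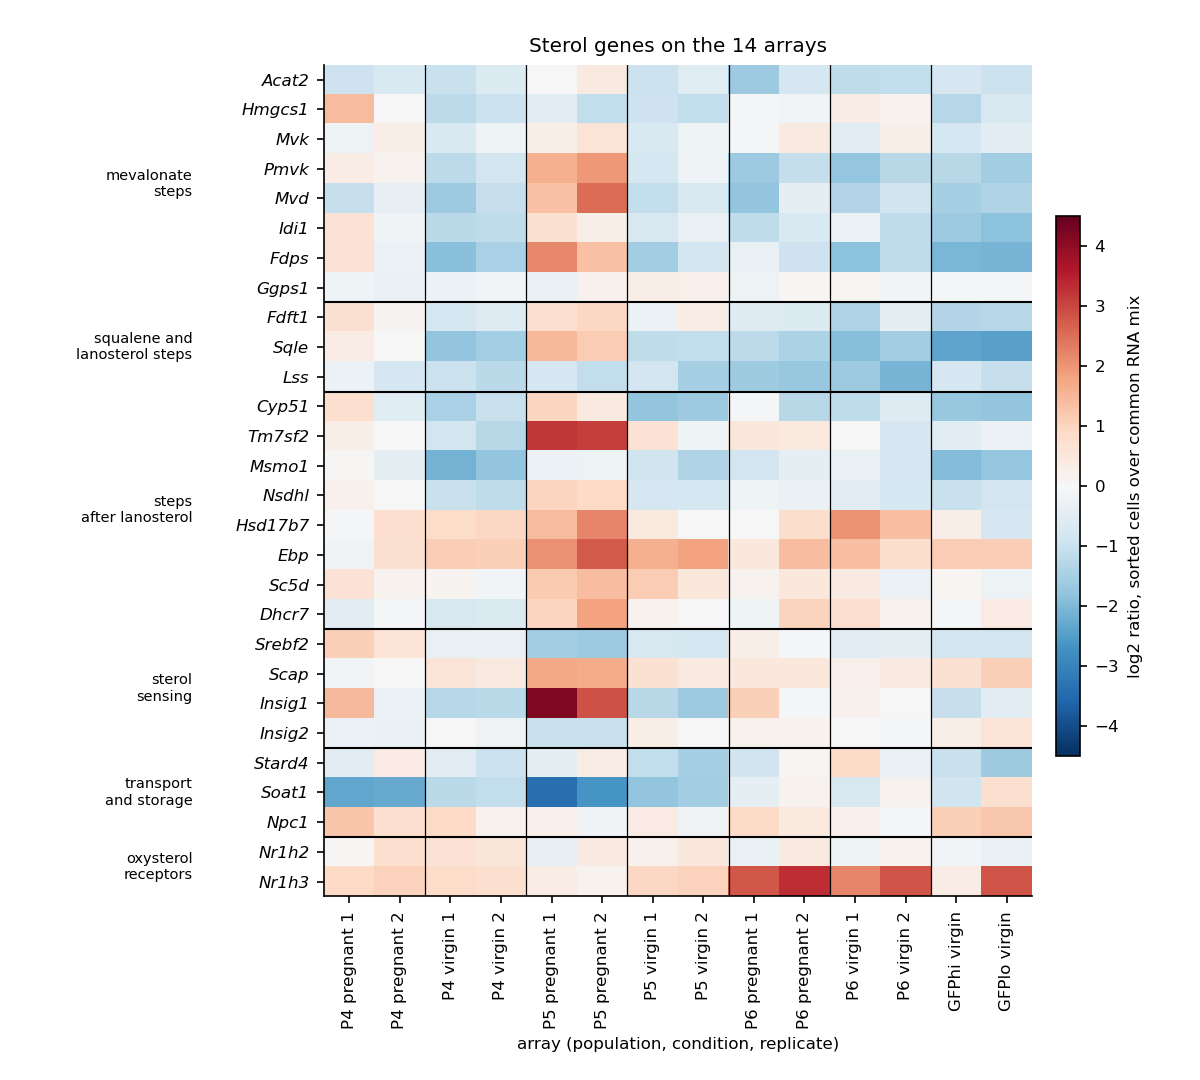
Log2 ratio of sorted cells over the common RNA mix for the 28 genes (rows, grouped by role) on the 14 arrays (columns, pregnant left of virgin within a population, GFPhi left of GFPlo). The pregnant P5 columns are the reddest for most enzymes, with Insig1 at 4.21 and 2.85, and the bluest for Soat1, at -3.38 and -2.64.

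The count of sterol genes past the threshold between pregnant and virgin mice was highest in P5, where more genes of every kind passed. Pregnant P5 cells had more RNA than virgin P5 cells of 9 of the 19 enzymes, by 1.83-fold to 7.72-fold on the brightest probe of each. They ran from the early steps (Mvd, Pmvk, Fdps) through squalene epoxidase (Sqle) to the last part of the route (Tm7sf2, Cyp51, Nsdhl, Hsd17b7, Msmo1). No enzyme passed in the other direction. Insig1 rose 31.2-fold and Scap 2.27-fold, whereas Insig2 fell 2.21-fold, Srebf2 fell 1.81-fold on its brightest probe and Soat1, which stores cholesterol as esters, fell 2.52-fold. In all 14 of the 28 genes passed an adjusted p of 0.05 (limma, moderated over all genes, Benjamini-Hochberg), 11 higher and 3 lower, against 21.4% of all genes tested (10.7% higher and 10.7% lower). The median log2 difference was 0.93 over the 28 genes, 1.00 over the 19 enzymes and 0.04 over all genes. In bulk samples of this kind, fewer cells of a type and less RNA per cell cannot be told apart.

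The mevalonate steps held 8 of the genes, 3 of which passed in P5. Fdps, which makes farnesyl diphosphate, had log2 ratios of 2.17 and 1.31 on the pregnant P5 arrays and -1.57 and -0.85 on the virgin ones. Its groups did not overlap, and it was 7.72-fold higher in pregnancy on its brightest probe (log2 difference 2.95, SE 0.445, adjusted p 0.00244). The other probe of Fdps gave 0.06. Mvd, which decarboxylates mevalonate diphosphate, had 1.31 and 2.51 in pregnant P5 and -1.11 and -0.69 in virgin P5. The lower pregnant array was still well above both virgin arrays, for a difference of 7.01-fold (log2 2.81, SE 0.52, adjusted p 0.00626), and the call was lost without virgin P5 replicate 1. Pmvk, the kinase before it, had 1.61 and 1.95 in pregnant P5 and -0.80 and -0.21 in virgin P5. It was 4.87-fold higher, with both pregnant arrays above both virgin arrays (log2 2.28, SE 0.284, adjusted p 0.000951). Hmgcs1, which makes the HMG-CoA that enters the route, had -0.50 and -1.10 in pregnant P5 and -0.94 and -1.10 in virgin P5, so its groups overlapped and its difference of 0.22 did not pass (adjusted p 0.759). The differences of Acat2, Mvk, Idi1 and Ggps1 lay between -0.32 and 1.00 and did not pass.

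In the squalene steps, Sqle, the epoxidase that is a rate-limiting enzyme of the route, had log2 ratios of 1.51 and 1.15 in pregnant P5 and -1.15 and -1.10 in virgin P5. It rose 5.50-fold, with every pregnant array more than 2 log2 units above every virgin array (log2 2.46, SE 0.202, adjusted p 0.00013). Fdft1, squalene synthase, and Lss, which closes the sterol ring, had differences of 0.79 and 0.26 on their brightest probes and did not pass.

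After lanosterol, 5 of the 8 genes rose in P5. Tm7sf2, a sterol reductase of the endoplasmic reticulum, had 3.20 and 3.12 in pregnant P5 and 0.66 and -0.20 in virgin P5. It was 7.65-fold higher, and its pregnant arrays differed by less than its virgin arrays did (log2 2.94, SE 0.326, adjusted p 0.000563). Nsdhl, which with Msmo1 and Hsd17b7 removes methyl groups from the sterol ring, had 0.96 and 0.89 in pregnant P5 and -0.74 and -0.79 in virgin P5. It rose 3.23-fold, with pairs that nearly coincided (log2 1.69, SE 0.145, adjusted p 0.000163). Cyp51, lanosterol demethylase, had 0.98 and 0.40 in pregnant P5 and -1.78 and -1.63 in virgin P5. Both pregnant arrays were higher, by 5.27-fold (log2 2.40, SE 0.493, adjusted p 0.0101), and the call was lost without replicate 1 of either P5 group. Hsd17b7 had 1.43 and 2.20 in pregnant P5 and 0.46 and 0.03 in virgin P5. It was 2.97-fold higher without overlap (adjusted p 0.0257), a call that was lost without either virgin P5 array or without pregnant P5 replicate 2. Msmo1 had -0.27 and -0.24 in pregnant P5 and -0.89 and -1.36 in virgin P5. It was 1.83-fold higher (adjusted p 0.0475), the weakest call of the group, which was lost without any 1 of the P5 arrays or the virgin P4 arrays. Ebp, Sc5d and Dhcr7 had differences of 0.69, 0.46 and 1.30 and did not pass.

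All 4 genes of sterol sensing passed in P5 on their brightest probes, 2 of them higher and 2 lower. Insig1, itself a target of SREBP2, had log2 ratios of 4.21 and 2.85 in pregnant P5 and -1.24 and -1.62 in virgin P5. Both pregnant arrays were far above both virgin arrays (log2 4.96, SE 0.621, adjusted p 0.000981). Insig2, which does the same work but is not induced by SREBP2, had -1.01 and -1.0 in pregnant P5 and 0.28 and 0.00 in virgin P5, with both pregnant arrays lower (log2 -1.15, SE 0.131, adjusted p 0.000636). Scap, the escort protein, had 1.75 and 1.69 in pregnant P5 and 0.68 and 0.39 in virgin P5. It was higher on both pregnant arrays (log2 1.18, SE 0.142, adjusted p 0.00081). Srebf2 had -1.57 and -1.64 in pregnant P5 and -0.70 and -0.80 in virgin P5, without overlap (log2 -0.85, SE 0.181, adjusted p 0.0117). The 3 other probes of Srebf2 were higher in pregnant P5, by 0.21 to 0.79, so its direction depended on the probe. Its call was lost without virgin P5 replicate 1 or pregnant P5 replicate 2.

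Among genes of transport and storage, Soat1 had -3.38 and -2.64 in pregnant P5 and -1.79 and -1.57 in virgin P5. It was lower on both pregnant arrays (log2 -1.33, SE 0.34, adjusted p 0.0252), and the call was lost without either virgin P5 array or without pregnant P5 replicate 1. Stard4, which carries cholesterol between membranes, and Npc1, which releases it from lysosomes, had differences of 1.26 and -0.07 and did not pass. Nr1h3 had 0.34 and 0.17 in pregnant P5 and 0.93 and 1.05 in virgin P5, lower on both pregnant arrays but short of the threshold (log2 -0.74, adjusted p 0.057). Nr1h2 differed by -0.33 and did not pass.

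With any 1 of the 12 wild-type arrays left out, 8 of the 14 genes kept passing in P5, namely Insig1, Fdps, Tm7sf2, Sqle, Pmvk, Nsdhl, Scap and Insig2. Without virgin P5 replicate 1 the count fell to 8, with 7 higher and 1 lower. Centring each array on its median in place of loess left 4 calls, all higher (Insig1, Tm7sf2, Mvd and Hsd17b7). The shares of all genes in these fits are not given here, so these counts cannot be set against the share of the main fit. Only scan 2 held both conditions, and its single pair of P5 arrays gave a median difference of 0.94 over the 28 genes, with Insig1 at 4.47, Tm7sf2 at 3.32, Sqle at 2.25, Scap at 1.30, Insig2 at -1.0, Soat1 at -1.07 and Srebf2 at -0.84.

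**Figure D2:**
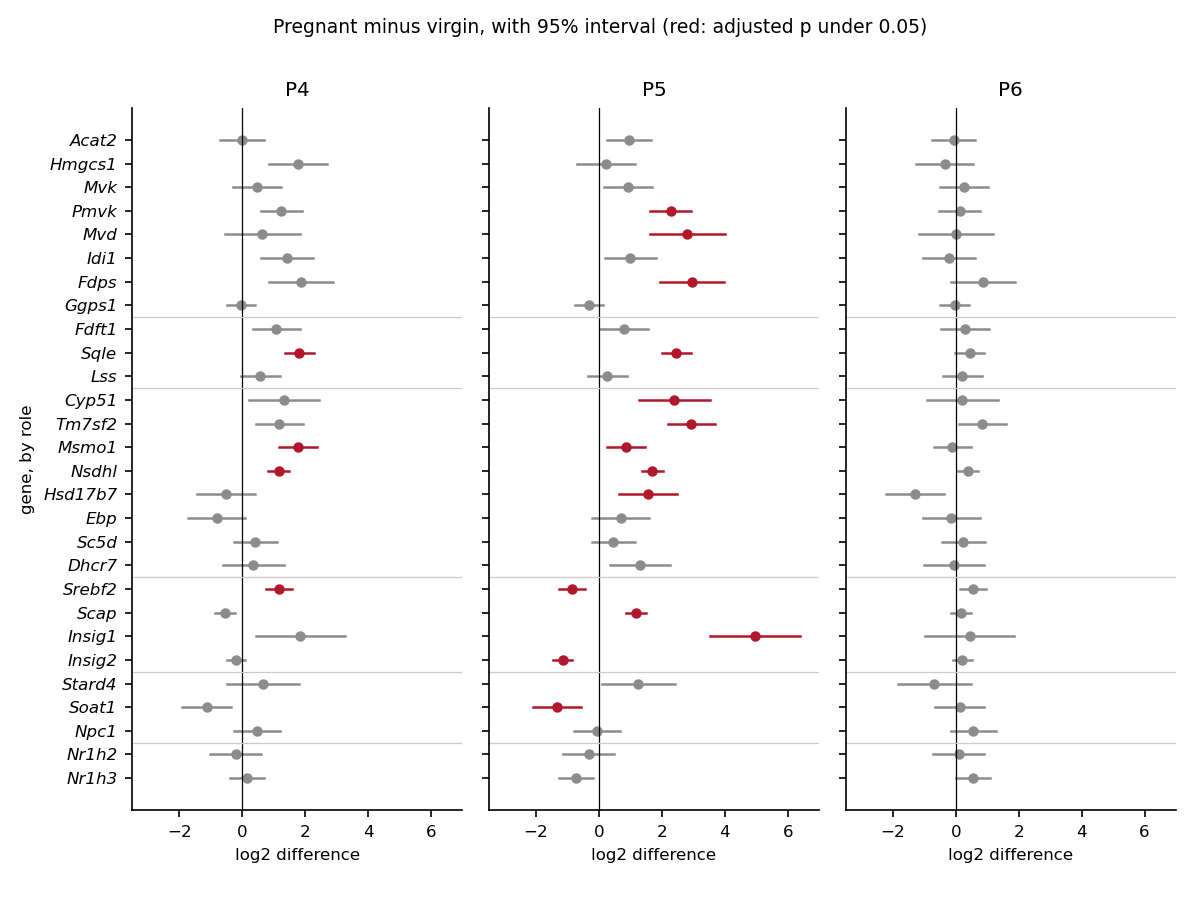
Log2 difference, pregnant minus virgin, of the 28 genes in P4, P5 and P6 (1 panel each), with dots for the estimate, bars for its 95% interval and red for an adjusted p under 0.05. Red dots number 4 in P4, 14 in P5 and 0 in P6, and Insig1 in P5 lies farthest from 0, at 4.96.

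Other cell markers moved with this comparison. All 5 markers of hormone-sensing luminal cells were lower in pregnant P5, with array means of 0.29 to 0.31 against 3.82 to 4.05 in virgin P5 and a median difference of -2.81, and 2 of the 5 were well above background on each pregnant P5 array against 5 of 5 on each virgin one. Luminal markers were lower for 5 of 8 genes, with means of 2.11 to 2.80 in pregnant P5 and 4.35 to 4.40 in virgin P5, Krt8 among them at -2.84. All 6 fast skeletal muscle genes were lower, at -0.38 to 1.02 in pregnant and 3.30 to 3.44 in virgin P5. Early response genes were lower for 4 of 7, at 1.92 to 2.83 in pregnant and 3.91 to 4.40 in virgin P5. Of the 5 secretory markers Wap passed, with a log2 difference of 5.41, of the 7 cell cycle markers Mki67 passed, with 2.63, and 1 of the 8 leukocyte markers was higher. Secretory array means were 5.88 and 8.81 in pregnant P5, replicate 1 first, and 5.05 to 5.33 in virgin P5. On pregnant P5 replicate 1, Csn2 (7.62) and Csn1s1 (6.62) lay below both virgin P5 arrays, and Csn3, Lalba and Wap lay above them. None of the 7 adipocyte markers passed by limma, and none had an unadjusted p under 0.05, but their array means did not overlap, at 3.14 and 1.37 in pregnant P5 and 0.96 and 1.01 in virgin P5. Pregnant P5 replicate 1 was the higher array, with Adipoq at 2.89 and Cidec at 2.84. Their part in the sterol results was not tested.

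Several genes had more than 1 probe, and the other probes did not always follow the brightest one. In the pregnancy comparison of P5, 9 genes that passed had 15 other probes, of which 4 pointed the opposite way. For Srebf2 the brightest probe gave -0.85, while its 3 other probes gave 0.21, 0.79 and 0.75, so the direction of Srebf2 in P5 depended on the probe. Fdps had 2.95 on the brightest probe and 0.06 on the other. Soat1 had -1.33 on the brightest and -2.40, -0.64 and 0.28 on the others. Lss, which did not pass with 0.26 on its brightest probe, had 2.62 and 1.43 on the others. The other probes of Insig1, Insig2 and Pmvk gave 3.44, -1.04 and 2.32, on the same side as the brightest, and those of Nsdhl gave 1.67 and 1.29.

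**Figure D3:**
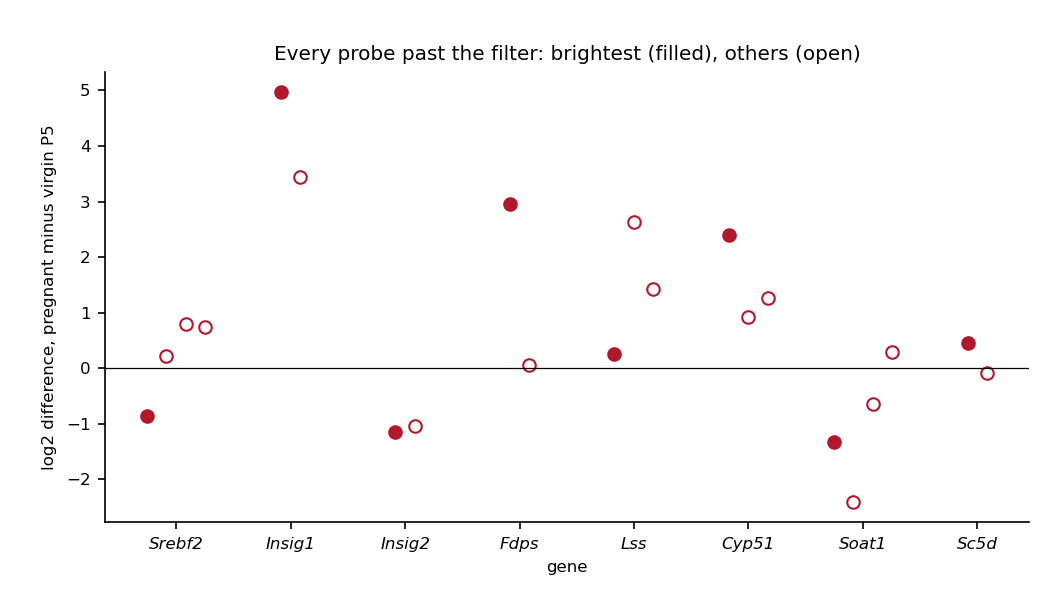
Log2 difference in P5, pregnant minus virgin, of each probe of 8 genes, with the brightest probe filled and the others open. The open points of Srebf2 lie at 0.21 to 0.79, across 0 from its filled point at -0.85, while both Insig1 points lie above 3 and both Insig2 points lie near -1.

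Promoters were read from the RefSeq table of GRCm38.p6, in windows of 250 bases before to 50 after an annotated start, for the 23 genes that it holds. Fdps, Fdft1, Sqle, Stard4 and Npc1 had no entry. Windows were searched on both strands for TCACNCCAC (a sterol regulatory element, where SREBP2 binds), CCAAT (the box of NF-Y), GGGCGG (the box of Sp1) and the DR4 element of LXR. Each motif was counted separately, also where matches overlapped. NF-Y and Sp1 are the usual partners of SREBP2 at such promoters. The sterol element with these letters was in 1.24% of the 32851 windows of the table and in 1 gene of the 23, Hmgcs1, at 137 bases before the start. CCAAT was in 63.3% of the 30 windows of these genes against 37.4% of all windows, and GGGCGG was in 73.3% against 35.7%. Both boxes together were in 53.3% of these windows, covering 16 of the 23 genes, against 12.8% of all windows. The DR4 element was in none of the 30 windows and in 0.0152% of all windows. A match of letters is a description and no measure of binding.

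The 150 bases before the start of 5 genes are shown with the motifs in capitals, Hmgcs1 because it alone held the sterol element and the other 4 because they rose in pregnant P5 and held a CCAAT and a GGGCGG in this stretch, a choice made after their values were seen. They lie at chr13:119690201-119690350 (plus strand) for Hmgcs1, chr19:6067851-6068000 (minus) for Tm7sf2, chr8:122443423-122443572 (minus) for Mvd, chr5:4104698-4104847 (minus) for Cyp51 and chrX:72918371-72918520 (plus) for Nsdhl, all in GRCm38.p6 and each written 5′ to 3′ on the strand of its gene. Capitals mark TCACCCCAC in Hmgcs1 and, in all 5, the letters CCAAT or ATTGG (NF-Y) and GGGCGG or CCGCCC (Sp1).
Hmgcs1: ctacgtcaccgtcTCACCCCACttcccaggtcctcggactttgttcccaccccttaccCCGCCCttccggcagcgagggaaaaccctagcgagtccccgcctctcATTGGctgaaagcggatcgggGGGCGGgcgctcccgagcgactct
Tm7sf2: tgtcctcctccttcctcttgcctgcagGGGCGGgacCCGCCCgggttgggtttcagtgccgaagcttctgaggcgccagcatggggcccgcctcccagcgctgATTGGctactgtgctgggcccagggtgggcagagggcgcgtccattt
Mvd: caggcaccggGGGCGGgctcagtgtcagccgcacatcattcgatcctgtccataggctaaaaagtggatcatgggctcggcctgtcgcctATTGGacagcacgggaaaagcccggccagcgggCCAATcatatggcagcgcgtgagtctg
Cyp51: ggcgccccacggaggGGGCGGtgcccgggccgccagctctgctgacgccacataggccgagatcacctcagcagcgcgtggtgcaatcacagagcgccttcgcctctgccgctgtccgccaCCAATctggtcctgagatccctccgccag
Nsdhl: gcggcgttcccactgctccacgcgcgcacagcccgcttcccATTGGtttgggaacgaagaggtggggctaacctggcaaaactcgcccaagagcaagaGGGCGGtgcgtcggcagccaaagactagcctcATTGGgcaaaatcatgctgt
Hmgcs1 held both boxes in its stretch as well. Because the other 4 genes were chosen for their rise and their boxes, the stretches say nothing about which promoters respond.

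In P4, 4 of the 28 genes were higher in pregnancy and no gene passed in the other direction, against 3.72% of all genes (1.48% higher). The count was 0 with median centring (13 at an unadjusted p under 0.05), 2 without scan 3, 8 with the replicate block and 12 with the slide or the scan as a block. The shares of all genes in those fits are not given here, so these counts cannot be set against the 3.72% of the main fit. The 4 genes of the main fit were Sqle (3.52-fold), Msmo1 (3.40-fold), Srebf2 (2.25-fold) and Nsdhl (2.23-fold). The median log2 difference was 0.61 over the 28 genes and 1.09 over the 19 enzymes, of which 3 passed, against -0.03 over all genes. At an unadjusted p under 0.05 there were 14 of the 28.

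Sqle had log2 ratios of 0.33 and 0.01 in pregnant P4 and -1.77 and -1.51 in virgin P4. Both pregnant arrays were above both virgin ones (log2 1.82, SE 0.202, adjusted p 0.00389), and the call held with any 1 of the 12 arrays left out. Msmo1 had 0.05 and -0.43 in pregnant P4 and -2.13 and -1.79 in virgin P4, without overlap (log2 1.77, SE 0.263, adjusted p 0.0117). Nsdhl had 0.19 and 0.01 in pregnant P4 and -0.98 and -1.13 in virgin P4, again without overlap (log2 1.16, SE 0.145, adjusted p 0.00632). Srebf2 had 1.07 and 0.63 in pregnant P4 and -0.32 and -0.32 in virgin P4 (log2 1.17, SE 0.181, adjusted p 0.0134). On this probe that was the opposite side from P5, and its 3 other probes gave 0.38, 1.90 and 0.19 in P4. Without virgin P4 replicate 1, virgin P4 replicate 2 or pregnant P4 replicate 1 the count of calls was 2, 1 and 2. Msmo1 and Srebf2 were lost in each of these 3 cases and Nsdhl without virgin P4 replicate 2.

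Several other genes missed the threshold in P4. Fdps had 0.67 and -0.26 in pregnant P4 and -1.89 and -1.47 in virgin P4, a difference of 1.88 (adjusted p 0.061). The other probe of Fdps gave 0.24. Hmgcs1 had 1.41 and -0.01 in pregnant P4 and -1.19 and -0.96 in virgin P4, a difference of 1.77 (adjusted p 0.0514). The 2 other probes of Hmgcs1 gave 0.14 and 0.55. Insig1 had 1.46 and -0.26 in pregnant P4 and -1.28 and -1.21 in virgin P4, a difference of 1.85 (adjusted p 0.177). In each of these 3 genes pregnant P4 replicate 1 was the higher of the pair, and that array was scanned in scan 3. Its adipocyte markers were also high, with a mean of 4.40 against 2.77 on pregnant P4 replicate 2 and 1.71 to 1.88 in virgin P4, and with Adipoq at 4.54 against 0.65 and Cidec at 5.27 against 1.06 on replicate 2. Pmvk had 0.32 and 0.16 in pregnant P4 and -1.18 and -0.82 in virgin P4 (difference 1.24, adjusted p 0.0529), and Scap had -0.11 and 0.02 against 0.57 and 0.42 (difference -0.54, adjusted p 0.0859). Insig2 had -0.26 and -0.31 in pregnant P4 and -0.03 and -0.14 in virgin P4, a difference of -0.20. For both genes the pregnant arrays were below the virgin ones. Tm7sf2 had 0.28 and -0.00 in pregnant P4 and -0.84 and -1.25 in virgin P4 (difference 1.18, adjusted p 0.1). Mvd had -1.03 and -0.38 in pregnant P4 and -1.65 and -1.04 in virgin P4. Cyp51 had 0.75 and -0.54 in pregnant P4 and -1.44 and -1.0 in virgin P4, a difference of 1.33 (adjusted p 0.225). In these 3 enzymes both pregnant arrays were above both virgin ones, though by little for Mvd. Hsd17b7 had -0.05 and 0.75 in pregnant P4 and 0.82 and 0.93 in virgin P4. Soat1 had -2.34 and -2.25 in pregnant P4 and -1.23 and -1.12 in virgin P4, a difference of -1.12 (adjusted p 0.132). Nr1h3 had 0.89 and 1.03 against 0.83 and 0.77. Hsd17b7 and Soat1 were lower on both pregnant arrays on these probes, and Nr1h3 differed by little. The other probe of Hsd17b7 pointed the opposite way in P4, with a difference of 0.67. Within scan 2 the single pair of P4 arrays gave a median difference of 0.57 over the 28 genes, with Sqle at 1.52, Msmo1 at 1.35, Nsdhl at 1.14 and Srebf2 at 0.95. Among cell markers, 1 luminal and 1 hormone-sensing gene were lower and 1 of 7 adipocyte genes higher in pregnant P4. The part of these markers, and of the adipocyte level of pregnant P4 replicate 1, was not tested.

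In P6 no sterol gene passed between pregnant and virgin mice by limma, and 5 of the 28 had an unadjusted p under 0.05. Few genes of any kind passed there, 0.207% of those tested, with 1757 at an unadjusted p under 0.05. The differences ran from -1.29 for Hsd17b7 to 0.86 for Fdps, with a median of 0.19 against -0.01 over all genes. The other probe of Hsd17b7 gave 0.03, so the low end of this range rests on 1 probe. Hsd17b7 had -0.02 and 0.79 in pregnant P6 and 2.01 and 1.34 in virgin P6, and Fdps had -0.32 and -0.93 against -1.83 and -1.14. Insig1 had 1.09 and -0.05 in pregnant P6 and 0.18 and -0.03 in virgin P6, groups that overlapped. Scap had 0.47 and 0.48 against 0.23 and 0.39, and Insig2 had 0.17 and 0.17 against 0.01 and -0.08. Srebf2 had 0.29 and -0.09 in pregnant P6 and -0.49 and -0.39 in virgin P6. These 3 regulators were higher on both pregnant arrays, by little, on the brightest probes. Another probe of Srebf2 gave -0.13 and the other probe of Insig2 gave -0.20. Among the early enzymes, Pmvk had -1.63 and -1.08 in pregnant P6 and -1.72 and -1.23 in virgin P6. Mvd had -1.77 and -0.44 against -1.31 and -0.91, and Hmgcs1 had -0.06 and -0.14 against 0.34 and 0.17. The groups of Pmvk and Mvd overlapped, and those of Hmgcs1 did not. Sqle had -1.19 and -1.42 in pregnant P6 and -1.93 and -1.55 in virgin P6. Tm7sf2 had 0.50 and 0.43 against 0.01 and -0.76, and Nsdhl had -0.21 and -0.31 against -0.49 and -0.80. In these 3 genes both pregnant arrays were the higher ones. Msmo1 had -0.85 and -0.41 in pregnant P6 and -0.30 and -0.75 in virgin P6, and Cyp51 had -0.06 and -1.24 against -1.13 and -0.59. Soat1 had -0.46 and 0.16 in pregnant P6 and -0.71 and 0.16 in virgin P6, and Nr1h3 had 2.80 and 3.34 against 2.21 and 2.83. The groups of Msmo1, Cyp51, Soat1 and Nr1h3 overlapped. The pair of P6 arrays within scan 2 gave a median difference of 0.27.

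Whether the effect of pregnancy depended on the population was tested directly, with an F test over the 3 effects. It passed for 10 of the 28 genes, against 7.98% of all genes. With median centring it passed for 0 (7 at an unadjusted p under 0.05), without scan 3 for 2, with backgrounds as given for 5 and with the series table for 6. All 4 sterol-sensing genes were among them, with Scap at an adjusted p of 0.00491, Srebf2 at 0.00622, Insig2 at 0.00826 and Insig1 at 0.0352. The other 6 were the enzymes Sqle, Nsdhl, Pmvk, Hsd17b7, Msmo1 and Tm7sf2, at adjusted p from 0.00955 to 0.047. The calls of Scap, Srebf2, Insig2 and Sqle held with any 1 of the 12 arrays left out. The count was 5 without either virgin P4 array or either virgin P5 array, and it was 6 without virgin P6 replicate 1, either pregnant P5 array or pregnant P6 replicate 1. With the replicate number as a block it was 21, against 27.1% of all genes. The shares of all genes under the other settings of this paragraph are not given here.

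Between P5 and P4 the effects differed for 3 genes, 1 higher and 2 lower in P5, against 8.08% of all genes (3.91% higher and 4.17% lower). The effect on Srebf2 was lower in P5 (-0.85) than in P4 (1.17), a difference of -2.03 (adjusted p 0.00376), with the probes of Srebf2 at odds in P5 as given above. The effect on Scap was higher in P5 (1.18) than in P4 (-0.54), a difference of 1.73 (adjusted p 0.0027). The effect on Insig2 was lower in P5 (-1.15) than in P4 (-0.20), a difference of -0.95 (adjusted p 0.0182). No enzyme of the 19 passed in this contrast by limma, and 8 had an unadjusted p under 0.05.

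Between P6 and P5 the effects differed for 9 genes, against 7.36% of all genes (3.56% higher and 3.8% lower). Of these, 7 had a lower effect in P6, namely Insig1 (-4.52, adjusted p 0.0185), Hsd17b7 (-2.86), Pmvk (-2.16), Tm7sf2 (-2.09), Sqle (-2.02, adjusted p 0.00534), Nsdhl (-1.31) and Scap (-1.01). Srebf2 (1.39) and Insig2 (1.35, adjusted p 0.00468) had a higher effect in P6. Between P6 and P4 no gene of the 28 passed by limma, with 9 at an unadjusted p under 0.05, against 0.3% of all genes called.

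**Figure D4:**
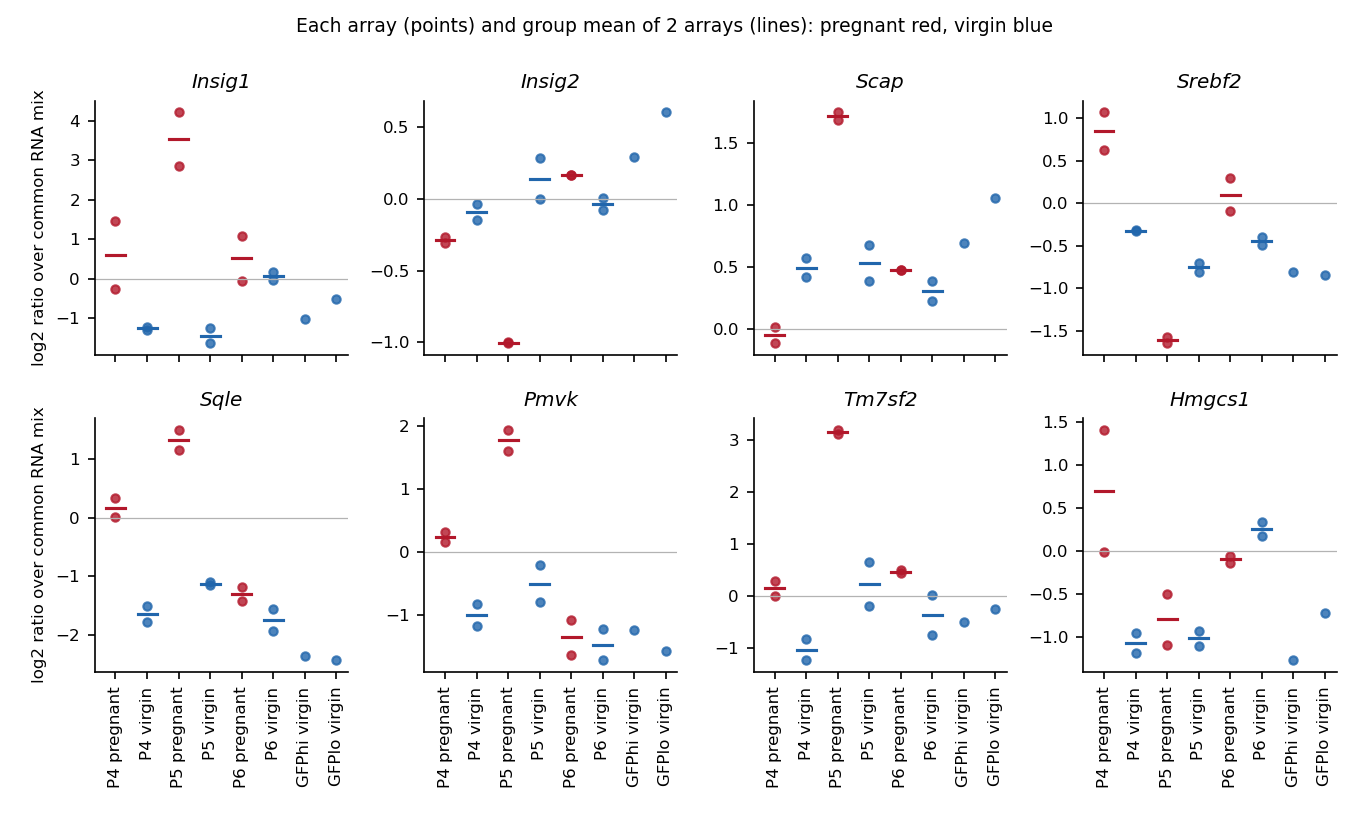
Log2 ratio over the common RNA mix of 8 genes on each array, by population, with pregnant arrays in red left of virgin arrays in blue and lines at group means. Scap and Insig1 are highest in pregnant P5, at 1.69 to 1.75 and 2.85 to 4.21, where Srebf2 and Insig2 are lowest, at -1.64 to -1.57 and -1.01 to -1.0. Each gene is read from its brightest probe, and the 3 other probes of Srebf2 (not drawn) gave 0.21 to 0.79 for pregnant minus virgin P5.

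By count of calls in the fit without a block, the populations themselves differed most in pregnant mice. These comparisons use the same pregnant arrays as above. Between pregnant P4 and pregnant P5, 15 of the 28 genes passed, 3 higher and 12 lower in P4, against 22.6% of all genes (11.7% higher and 10.9% lower). Of the 19 enzymes 10 were lower in P4, by up to 8.13-fold for Tm7sf2 (adjusted p 0.000396) and 6.12-fold for Mvd (adjusted p 0.00788), whose log2 ratios were 0.28 and -0.00 and -1.03 and -0.38 in pregnant P4. Hmgcs1 was 2.82-fold higher in pregnant P4 (adjusted p 0.0287), a call that was lost without pregnant P4 replicate 1, the higher array, or pregnant P5 replicate 2. Insig1 was 7.61-fold lower (adjusted p 0.0106) and Scap was lower by a log2 difference of -1.77 (adjusted p 0.000116), while Srebf2 was 5.5-fold higher (adjusted p 7.94e-05) and Insig2 was higher by 0.72 (adjusted p 0.00516). Of the 15 calls, 8 held with any 1 of the 12 arrays left out. The median difference was -0.50 over the 28 genes against -0.05 over all genes. It was -0.83 within scan 2, -0.37 within scan 3 and 0.06 with median centring, which left 4 calls. Of 13 other probes of called genes, 2 pointed the opposite way, those of Fdps (0.04) and 1 of Srebf2 (-0.60). Basal markers were higher in pregnant P4 for 3 of 8 genes, endothelial markers for 3 of 6 and pericyte markers for 3 of 4, and their part was not tested.

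Between pregnant P5 and pregnant P6, 18 of the 28 genes passed, 14 higher and 4 lower in P5, against 27% of all genes (13.8% higher and 13.3% lower). Of the 19 enzymes 12 were higher in P5 and none was lower among those that passed. Pmvk, at 1.61 and 1.95 in pregnant P5 and -1.63 and -1.08 in pregnant P6, was 8.79-fold higher (adjusted p 9.06e-05). Mvd, at 1.31 and 2.51 against -1.77 and -0.44, was 8.07-fold higher (adjusted p 0.00297), and Sqle, at 1.51 and 1.15 against -1.19 and -1.42, was higher by a log2 difference of 2.63 (adjusted p 3.73e-05). Insig1 was 8.06-fold higher (adjusted p 0.00742). The largest differences in the other direction were those of Soat1 and Nr1h3. Soat1 had -3.38 and -2.64 in pregnant P5 and -0.46 and 0.16 in pregnant P6, 7.27-fold lower (adjusted p 0.000401). Nr1h3 had 0.34 and 0.17 in pregnant P5 and 2.80 and 3.34 in pregnant P6, 7.06-fold lower (adjusted p 5.63e-05). Srebf2 and Insig2 were lower in P5 as well, by log2 differences of -1.71 and -1.17. The median difference was 1.08 over the 28 genes, 0.94 within scan 2 and 1.11 within scan 3, against 0.05 over all genes, and 12 of the 18 calls held with any 1 array left out, while median centring left 8. Of 16 other probes of called genes, 5 pointed the opposite way, those of Fdps (-0.26), Fdft1 (-0.39) and Sc5d (-0.37) and 2 of Srebf2. Luminal markers were higher in pregnant P5 for 6 of 8 genes and cell cycle markers for 4 of 7, while fibroblast markers were lower for 7 of 7 and pericyte markers for 3 of 4, and their part was not tested.

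Between pregnant P4 and pregnant P6, 7 of the 28 genes passed, 4 higher and 3 lower in P4, against 12.1% of all genes (6.21% higher and 5.88% lower). The enzymes Pmvk (3.03-fold, adjusted p 0.00665), Sqle (2.78-fold, adjusted p 0.0017) and Lss (log2 1.15) were higher in P4, as was Srebf2 (0.75, adjusted p 0.029). Soat1, at -2.34 and -2.25 in pregnant P4 and -0.46 and 0.16 in pregnant P6, was 4.43-fold lower in P4 on its brightest probe (adjusted p 0.00359). Its 3 other probes ran from -1.23 to 0.12. Of the 9 other probes of called genes, that 1 of Soat1 pointed the opposite way. Nr1h3, at 0.89 and 1.03 against 2.80 and 3.34, was 4.33-fold lower (adjusted p 0.000551), and Scap was lower by -0.52 (adjusted p 0.0479). The count was 4 without pregnant P4 replicate 1 or pregnant P6 replicate 2, 3 without scan 3, 1 with median centring, and 12, against 24.4% of all genes, with the replicate number as a block. The median difference was 0.35, and it was 0.07 within scan 2, 0.40 within scan 3 and -0.03 without pregnant P6 replicate 1.

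Several of these population differences came from genes with no call between pregnant and virgin mice. Ebp, the isomerase that moves the double bond of the sterol ring, had -0.16 and 0.70 in pregnant P4, 2.05 and 2.77 in pregnant P5 and 0.48 and 1.39 in pregnant P6, without overlap between P5 and either of the others (differences of -2.14 for P4 minus P5 and 1.47 for P5 minus P6). Dhcr7, the reductase that makes cholesterol in the last step of one branch, had -0.52 and -0.10 in pregnant P4 and 0.97 and 1.80 in pregnant P5, a difference of -1.70 for P4 minus P5. Its pregnant P6 arrays, at -0.21 and 1.02, overlapped with those of P5. Fdft1 had 0.74 and 0.92 in pregnant P5 and -0.58 and -0.61 in pregnant P6, higher on both P5 arrays by 1.43. Idi1, which makes the isomer that farnesyl diphosphate is built on, had 0.69 and 0.26 in pregnant P5 and -1.15 and -0.68 in pregnant P6, higher by 1.39. Acat2, which joins acetyl-CoA units at the entry of the route, had -0.93 and -0.67 in pregnant P4, -0.00 and 0.39 in pregnant P5 and -1.64 and -0.75 in pregnant P6, highest in P5 (differences of -0.998 and 1.39). Its call between P4 and P5 was lost with any 1 of 10 arrays left out. Lss had -0.27 and -0.75 in pregnant P4 and -1.62 and -1.70 in pregnant P6. Mvk, Ggps1, Stard4, Npc1 and Nr1h2 passed in none of the tests over the 12 arrays, and Sc5d passed between pregnant P5 and P6 alone (0.98), a call lost with any 1 of 6 arrays left out. Ggps1, which leads to geranylgeranyl groups and away from sterols, had log2 ratios from -0.33 to 0.30 over the 14 arrays.

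In virgin mice few sterol genes passed between populations in the fit without a block, and more passed with the replicate number as a block, as given below. Between virgin P4 and virgin P5 1 gene of 28 passed, Tm7sf2, against 11.4% of all genes (4.82% lower). It had -0.84 and -1.25 in virgin P4 and 0.66 and -0.20 in virgin P5 and was 2.41-fold lower in P4 (adjusted p 0.04), and the call was lost when any 1 of 9 of the 12 arrays was left out. Between virgin P4 and virgin P6, Nr1h3 and Msmo1 passed, 2 of 28, both lower in P4, against 10.4% of all genes (5.47% lower). Nr1h3 had 0.83 and 0.77 in virgin P4 and 2.21 and 2.83 in virgin P6 and was 3.29-fold lower in P4 (adjusted p 0.00194). Msmo1 had -2.13 and -1.79 in virgin P4 and -0.30 and -0.75 in virgin P6 and was 2.7-fold lower (adjusted p 0.00909), until virgin P4 replicate 1 or virgin P6 replicate 1 was left out.

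Between virgin P5 and virgin P6, 3 of 28 genes passed, all lower in P5, against 16.1% of all genes (8.81% lower). Nr1h3, at 0.93 and 1.05 in virgin P5 and 2.21 and 2.83 in virgin P6, was 2.89-fold lower (adjusted p 0.0022). Soat1, at -1.79 and -1.57 in virgin P5 and -0.71 and 0.16 in virgin P6, was 2.64-fold lower on its brightest probe (adjusted p 0.023). Its 3 other probes ran from -0.95 to 0.82, with 1 of them on the opposite side. Hsd17b7, at 0.46 and 0.03 against 2.01 and 1.34, was 2.7-fold lower (adjusted p 0.0442). Nr1h3 was the gene that held with any 1 array left out, and the count was 1 without virgin P5 replicate 2. Nr1h3 was thus higher in P6 than in both other populations in both conditions. With the replicate number as a block the counts were 8 of 28 between virgin P4 and P5 (24.4% of all genes), 12 between virgin P4 and P6 (22% of all genes) and 14 between virgin P5 and P6 (29% of all genes). The median differences of these 3 comparisons were -0.21, -0.21 and 0.17, within scan 1 they were -0.25, -0.31 and 0.16, and within scan 2 they were -0.21, -0.15 and 0.04.

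The design also sets the stem-cell-enriched populations (P4 and GFPhi) against the depleted ones (P5, P6 and GFPlo). No sterol gene passed by limma in pregnant mice (7 at an unadjusted p under 0.05, 2.49% of all genes called) or in virgin mice (1 at an unadjusted p under 0.05, 1.64% of all genes called), and none passed for the difference between these contrasts (4 at an unadjusted p under 0.05, 0.0973% of all genes called). The depleted side pools P5 and P6, whose sterol genes lay far apart in pregnancy. Pregnant enriched cells had 3 calls without pregnant P6 replicate 1, and virgin enriched cells had 1 without the GFPlo array. The median differences were -0.21 in pregnant and -0.24 in virgin mice, and the pregnant one was 0.29 with median centring.

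The GFPhi and GFPlo arrays, 1 each, allow no test. Their 19 enzymes averaged log2 ratios of -0.92 in GFPhi and -0.95 in GFPlo, and the median difference over the 28 genes was -0.02. Past a size of 1 on the log2 scale there were 3 of 28 genes (10.7%), against 6.34% of all genes. Nr1h3 had 0.33 in GFPhi and 2.83 in GFPlo, a difference of -2.50. Soat1 had -0.91 in GFPhi and 0.71 in GFPlo, and Hsd17b7 had 0.31 in GFPhi and -0.77 in GFPlo. The other genes lay closer together. Among the regulators, Insig1 had -1.02 in GFPhi and -0.51 in GFPlo, Insig2 had 0.29 and 0.61, Scap had 0.70 and 1.06, and Srebf2 had -0.81 and -0.84. Among the enzymes, Hmgcs1 had -1.28 in GFPhi and -0.72 in GFPlo, Pmvk had -1.24 and -1.57, Mvd had -1.50 and -1.35, Fdps had -2.07 and -2.09, and Sqle had -2.36 and -2.44. Cyp51 had -1.72 in GFPhi and -1.78 in GFPlo, Tm7sf2 had -0.51 and -0.26, Msmo1 had -1.96 and -1.74, and Nsdhl had -0.99 and -0.85. Fibroblast markers averaged 1.85 in GFPhi and 5.04 in GFPlo, and their part was not tested.

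Among 22 other genes of sterol handling, 9 (40.9%) passed between pregnant and virgin P5, against 21.4% of all genes. Of these, 4 were higher and 5 lower, and the median difference over the 22 was -0.01. Srebf1, which drives fatty acid synthesis, had 3.21 and 3.39 in pregnant P5 and 1.73 and 1.57 in virgin P5, a log2 difference of 1.65 (adjusted p 0.000226), with both pregnant arrays higher. Npc2 (2.40) and Scarb1 (1.73), which move cholesterol out of lysosomes and into cells, were higher as well. The exporters Abcg1 (-2.96) and Abca1 (-1.34), both targets of the LXR receptors, were lower, as were Stard3 (-2.19), Mylip (-1.74), a ubiquitin ligase, and Mbtps1 (-1.05), a protease that cuts SREBP proteins in the Golgi.

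In P4, 5 of the 22 (22.7%) passed, 3 higher and 2 lower, against 3.72% of all genes. Srebf1 (0.81) was higher, and Abcg5 (-1.97), a sterol exporter, and Ch25h (-2.30), which makes 25-hydroxycholesterol, were lower. In P6 none of the 22 passed by limma, against 0.207% of all genes, and 2 had an unadjusted p under 0.05.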

How the data were processed

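RNA of sorted mouse mammary cells (Cy5) and of a common mix of cell-line RNA (Cy3) was hybridised together on 14 Agilent arrays. The mean and local background intensities used here are as deposited in the scanner files, made with Agilent Feature Extraction 9.5.3.1 per the submitters' processing notes. Per the file headers, those files also hold the software's own log10 ratio, background-subtracted and dye-normalized, and flags for outlier, saturated and well-above-background spots, which are without a unit. The authors' deposited series table holds log2 ratios that correlated at 0.990 to 1.000 with the scanner's ratio, Cy5 over Cy3, with column medians of -0.0182 to 0.102, so it was not centred, and it served as an alternative.

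Values were computed in R 4.3.3 with limma 3.58.1. Outlier local backgrounds were replaced by the array's median, a step chosen after seeing the data. Background was corrected with normexp (offset 50) and ratios were normalized by loess within each array, control spots carrying no weight and being dropped afterwards. Spots marked as outliers were treated as missing, and repeated spots of a probe were averaged. A probe was kept if, in 1 or more of the 6 groups with replicates, both arrays had it well above background in Cy5. This left 34795 of 41174 probes, for 23642 genes. The probe brightest on average stood for a gene. Probes were named through the RefSeq gene table, 22951 of them by accession, 6659 through the symbol and 3109 through a synonym. The remaining 8455 keep the scanner files' name.

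Groups came from the labels. One model gave the 6 wild-type groups a mean each over 12 arrays, with 6 residual degrees of freedom, and another gave the stem-cell-enriched and depleted populations of each condition a mean over 14 arrays, with 10. P-values were adjusted by Benjamini-Hochberg over all genes, with a threshold of 0.05, and the tests were tried on simulated data. The number of arrays limits the precision. The 28 genes and the lists of markers and other genes were chosen with earlier results of these data known. Values of every array are given for the 4 sterol-sensing genes, for up to 4 genes with the largest difference among those called in each comparison, and for the 4 with the widest span of group means. Beyond this rule, Cyp51 and Hmgcs1 were given in full and Srebf1 in P5, after their values were seen. The same holds for Ebp, Dhcr7, Fdft1, Idi1, Acat2 and Lss, which were given on some of the pregnant arrays. Some of the other genes are not reported here by name. Probes were not set against one another in level.

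Deviations from group means of same-numbered arrays correlated at 0.305 to 0.68 between virgin groups and at 0.631 to 0.688 between pregnant groups, so the numbers pair the arrays within a condition, where they shared a scan. Across conditions the correlations ran from -0.208 to 0.146 and the numbers do not pair the arrays. The arrays of scan 3 were made without the extended dynamic range and held 111 to 236 spots saturated in Cy5, where the other arrays held 0 to 15. Alternatives were the series table, median centring, backgrounds as given, no filter on dim probes, the mean over probes, the slide, the scan or the replicate number as a block, leaving out scan 3, and leaving out each array in turn. Where a count under an alternative stands without a share of all genes, it cannot be set against the share of the main fit.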

Additional observations from a re-analysis of the deposited data

Results flagged for a closer look

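For 10 of the 28 genes the effect of pregnancy differed among P4, P5 and P6 by the moderated F test of limma, against 7.98% of all genes, and each is listed here with its log2 effects in P4, P5 and P6 in that order. None of the 10 passed with median centring (7 of the 28 genes had an unadjusted p under 0.05), and 2 genes passed without scan 3. Among the sterol-sensing genes, Scap had effects of -0.54, 1.18 and 0.17 (adjusted p 0.00491), so the direction in P5 was opposite to that in P4. Srebf2 had 1.17, -0.85 and 0.54 on its brightest probe (adjusted p 0.00622), opposite in direction to Scap in P4 and P5 but not in P6. Its 3 other probes gave 0.21 to 0.79 in P5, so its direction there depended on the probe. Insig2 had -0.20, -1.15 and 0.21 (adjusted p 0.00826), and Insig1 had 1.85, 4.96 and 0.44 (adjusted p 0.0352). Among the enzymes, Sqle had 1.82, 2.46 and 0.44 (adjusted p 0.00955). Nsdhl had 1.16, 1.69 and 0.38 (adjusted p 0.0158). Pmvk had 1.24, 2.28 and 0.12 (adjusted p 0.0323), and Tm7sf2 had 1.18, 2.94 and 0.84 (adjusted p 0.047). For these 4 enzymes the effect was smallest in P6. Hsd17b7 had -0.53, 1.57 and -1.29 (adjusted p 0.037) on its brightest probe, while its other probe gave 0.67, 2.06 and 0.03, so its direction in P4 and P6 depended on the probe. Msmo1 had 1.77, 0.87 and -0.10 (adjusted p 0.042), with its largest effect in P4.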

How the results depend on the processing

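Of 74 calls of single genes, the authors' series table kept 64 past the threshold, median centring 18, backgrounds as given 52, no filter on dim probes 70, the slide block 72, the scan block and the replicate block all 74, and leaving out scan 3 kept 49. The mean over all probes kept 64 and turned the direction of Srebf2 in pregnant against virgin P5, to 0.22 (adjusted p 0.556), since its probes disagree. Over the 888 fits of these genes with 1 array left out, 734 kept the call and 154 lost it. The cause of the other changes was not tested. Counts below are given without the share of all genes called in the same fit, except where one is printed. With median centring the count of called genes was 2 (virgin P4 against P5), 1 (virgin P4 against P6), 4 (pregnant P4 against P5), 1 (pregnant P4 against P6), 8 (pregnant P5 against P6), 4 (pregnancy in P5), 0 (pregnancy in P4, 13 at an unadjusted p under 0.05) and 0 (F test, 7 unadjusted). With backgrounds as given it was 0 (virgin P4 against P5, 6 unadjusted), 1 (virgin P4 against P6), 0 (virgin P5 against P6, 9 unadjusted) and 5 (F test). In the same order of virgin comparisons it was 9, 13 and 13 with the slide block, 8, 12 and 14 with the scan block, 8, 12 and 14 with the replicate block, and 0 (8 unadjusted), 5 and 5 without scan 3. Pregnant P4 against P6 gave 11, 12, 12 and 3 under these 4 settings, pregnancy in P4 gave 12, 12, 8 and 2, and the F test gave 19, 21, 21 (27.1% of all genes) and 2, besides 6 with the series table. Pregnancy in P6 had 1 call with the scan block. The replicate block otherwise changed no count by over 1.5 times.

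With 1 array left out at a time, counts ran from 10 to 16 (pregnant P4 against P5), 4 to 8 (pregnant P4 against P6), 13 to 20 (pregnant P5 against P6), 0 to 1, 1 to 3 and 1 to 4 (the virgin comparisons), 1 to 5 (pregnancy in P4), 8 to 17 (in P5), 0 to 0 (in P6), 5 to 9 (F test), 0 to 3 and 0 to 1 (enriched against depleted, pregnant and virgin) and 0 to 0 (their difference). The median difference over the 28 genes between pregnant and virgin mice ranged over the settings from 0.55 to 1.16 in P4, 0.43 to 1.08 in P5 and -0.02 to 0.33 in P6. Median centring moved the median of all genes to 0.159 between pregnant P4 and P6 and to 0.145 in pregnancy of P4, and the series table moved it to 0.106 in pregnancy of P5 to -0.165 for pregnant P4 against P5 and to 0.166 for pregnant P5 against P6. Counts of 0 with 1 array left out had between 0 and 7 genes at an unadjusted p under 0.05. An array left alone in its group was assumed to vary like the other groups.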
